A study of Arabidopsis thaliana with 4 samples.

Results

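Transcripts of COP1, SPA1, SPA2, SPA3, SPA4, DET1, COP10, DDB1A, HY5 and HYH, 10 genes of the switch between growth in darkness and growth in light, were read in Arabidopsis thaliana seedlings mutant in phytochrome B (phyB), the photoreceptor that dominates responses to red light in green seedlings, and in the wild type (WT). The genes were taken by locus code from the 27416 gene models listed for each genotype, and all 10 had exactly 1 model there. Both genotypes were in the Col-0 accession and were whole seedlings with a growth time of 4.5 days. After 4 days of cold as seeds, they had 12 h of white light and then 4 days of red light at a photon fluence rate of 60 μmol per m2 and second, on medium with 1% sucrose. The sources used here name no phyB allele. Each genotype has 2 samples in the labels, yet the values come as 1 column of reads and 1 column of RPKM (reads per kilobase of coding length, scaled to the column total) for each. No value therefore had a replicate check, and no test between genotypes was possible. The titles of the WT samples carry a word for a repeated analysis that the phyB titles lack, so any batch could not be told apart from the genotype.

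Light reaches these genes' products through photoreceptors. In darkness the RING-type ubiquitin ligase COP1, joined to SPA proteins, marks transcription factors that promote photomorphogenesis for destruction, and the bZIP factor HY5 is its best-known target. DET1, COP10 and DDB1 form a further repressor complex, which like COP1 and SPA proteins works with ligases built on CUL4. Active phytochromes and cryptochromes bind COP1 and SPA proteins and hold the ligase back, so HY5 and its relative HYH build up in light and bind promoters of light-induced genes. Much of this control acts on proteins, which transcript counts do not show.

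The phyB column held 33201394 reads and the WT column 33521717 reads. PHYB itself stood at 14.1 RPKM in phyB and 36.3 RPKM in WT, for a log2 ratio of -1.36 (95% counting interval -1.45 to -1.28). Chloroplast genes took 2.18% of the reads in phyB and 1.87% in WT, and mitochondrial genes 0.103% in phyB and 0.0475% in WT. The labelled tissue is the seedling, and the shoot markers RBCS1A, LHCB1.3 and LHCB2.1 summed to 26908 RPKM in phyB and 27665 RPKM in WT. Their log2 ratios differed in direction, at 0.17 for RBCS1A, -0.18 for LHCB1.3 and -0.33 for LHCB2.1, each with an interval that excluded 0. The 5 root markers (PHT1;1, COBL9, EXPA7, CASP1 and TIP2;3), all detected, summed to 932 RPKM in phyB and 1573 RPKM in WT. Only TIP2;3, a tonoplast aquaporin gene, was lower by more than counting error, at 632 RPKM in phyB and 1288 RPKM in WT. The other root markers did not share this: CASP1 had a log2 ratio of 0.09 (interval 0.03 to 0.15). The intervals of PHT1;1 (-0.02), EXPA7 (0.30) and COBL9 (-0.25) included 0. The 3 seed markers (CRA1, CRU3 and EM6) summed to 17.0 RPKM in phyB and 26.8 RPKM in WT. Most of this difference lay in EM6, at 1.19 RPKM in phyB and 10.8 RPKM in WT. CRA1 was also lower, at 7.58 RPKM in phyB and 9.10 RPKM in WT, while CRU3 was at 8.28 RPKM in phyB and 6.86 RPKM in WT. The part of these marker differences in the results was not tested. In whole seedlings, fewer cells of a type and less RNA per cell cannot be told apart.

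The repressor genes and HY5 were mostly somewhat lower in phyB, and none differed 2-fold. As deposited, the SPA family had the lowest log2 ratios. With a trend of the ratio on coding length removed, HY5 was the lowest, at -0.46. All 10 genes had a mean of at least 1 RPKM, as did 19295 genes in all, and between 398 and 7025 reads per column. None of the 10 reached 2-fold in either direction, where 5.38% of all genes did. Only SPA1 was at least 1.5-fold lower, beside 7.27% of all genes, and none was 1.5-fold higher, beside 9.74% of all genes. SPA1 was just under 1.5-fold with upper-quartile factors, at -0.58 on the log2 scale, and at -0.43 with a trend of the ratio on coding length removed. The 95% counting interval of the log2 ratio excluded 0 for 8 of the 10 and for 61.9% of all genes. It lay below 0 for 7 of the 10, against 32.0% of all genes, and above 0 for 1, against 29.8% of all genes. All genes include genes with fewer reads and wider intervals, so these shares are no matched background. Among genes of the coding-length range of the SPA genes, the interval lay below 0 for 57.6%. The median log2 ratio of the 10 genes was -0.31, and that of all genes was -0.01 with quartiles at -0.25 and 0.26. The intervals, exact and conditional on the reads of both columns, cover counting error only, and variation between seedlings is not in them.

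**Figure D1:**
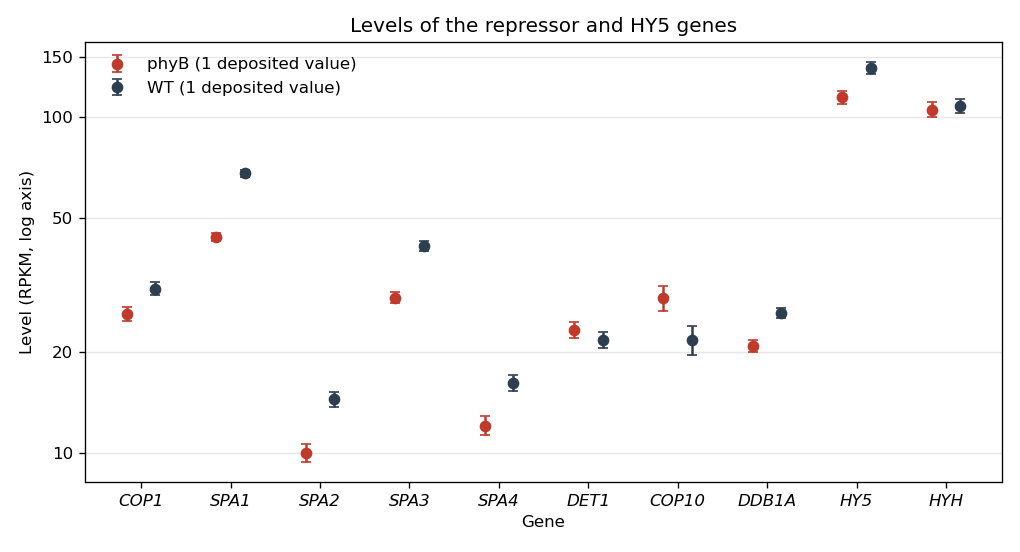
Level of each gene in RPKM on a log axis, with phyB in red on the left and WT in dark blue on the right of each pair. Points are the single deposited values and bars their 95% Poisson counting intervals. The phyB values of SPA1 to SPA4 all lie under the WT values, and HY5 and HYH are the highest in both genotypes.

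The 4 SPA genes encode WD-repeat partners of COP1 with a kinase-like domain, which the ligase needs for its activity in plants. All 4 were lower in phyB, at 64.6% to 74.5% of the WT level. SPA1 (AT2G46340), a main repressor of seedling light responses in the family, had 43.8 RPKM (4496 reads) in phyB, against 67.8 RPKM (7025 reads) in WT. This was the lowest ratio of the 10 genes, at -0.63 on the log2 scale with an interval from -0.68 to -0.58, and 6.11% of all genes had a lower ratio. SPA2 (AT4G11110), which acts in dark-grown seedlings, had 9.99 RPKM (1032 reads) in phyB and 14.5 RPKM (1507 reads) in WT. Its log2 ratio was -0.53 with an interval from -0.65 to -0.42. SPA3 (AT3G15354), which limits light responses in seedlings and adult plants, had 29.0 RPKM (2418 reads) in phyB and 41.2 RPKM (3469 reads) in WT. The log2 ratio of SPA3 was -0.51, with an interval from -0.58 to -0.43. SPA4 (AT1G53090), its closest relative, had 12.1 RPKM (955 reads) in phyB and 16.2 RPKM (1294 reads) in WT, a log2 ratio of -0.42 with an interval from -0.55 to -0.30.

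The summed level of the family was lower in phyB, while its make-up was similar in both genotypes. The 4 genes added up to 94.8 RPKM in phyB and 139.6 RPKM in WT, a log2 ratio of -0.56. SPA1 made up 46.2% of the sum in phyB and 48.6% in WT. SPA3 made up 30.5% in phyB and 29.5% in WT, SPA4 12.7% in phyB and 11.6% in WT, and SPA2 10.5% in phyB and 10.3% in WT. The shares thus differed by at most 2.37 percentage points between genotypes. Within the family, the difference in log2 ratio was -0.21 between SPA1 and SPA4, with a counting interval from -0.34 to -0.07, and -0.12 between SPA1 and SPA3, from -0.22 to -0.03. For the other 4 pairs of SPA genes the interval of the difference included 0, which does not show that their ratios were alike.

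COP1 (AT2G32950), the ligase subunit itself, had 25.9 RPKM (1746 reads) in phyB and 30.8 RPKM (2092 reads) in WT. Its log2 ratio of -0.25, with an interval from -0.34 to -0.15, lay near the lower quartile of all genes, and 25.5% of genes had a lower ratio. Of the 4247 genes between 1632 and 3267 nt, a range that holds COP1, 36.2% had a lower ratio than COP1. Per length, there were 3.66 units of SPA transcript for each unit of COP1 transcript in phyB and 4.54 in WT. The log2 ratio of each SPA gene was below that of COP1, by -0.38 for SPA1 (interval -0.49 to -0.28), -0.29 for SPA2 (interval -0.43 to -0.14), -0.26 for SPA3 (interval -0.38 to -0.14) and -0.18 for SPA4 (interval -0.33 to -0.03). These differences compare reads of the same 2 columns and have no replicate error.

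The genes of the DET1 complex did not share a direction. DET1 (AT4G10180), a nuclear repressor of light-induced genes, had 23.2 RPKM (1256 reads) in phyB and 21.7 RPKM (1185 reads) in WT, a log2 ratio of 0.10 with an interval from -0.02 to 0.21 that includes 0. COP10 (AT3G13550), a relative of E2 ubiquitin-conjugating enzymes that lacks their catalytic cysteine, was the only gene of the 10 whose interval lay above 0. It had 28.8 RPKM (525 reads) in phyB and 21.6 RPKM (398 reads) in WT, a log2 ratio of 0.41 with an interval from 0.22 to 0.60. This lay within the quartiles of the 1089 genes of similar length (450 to 549 nt), whose upper quartile was 0.43. Of those genes, 73.8% had a lower ratio than COP10. DDB1A (AT4G05420), the adaptor that joins the complex to CUL4, had 20.8 RPKM (2261 reads) in phyB and 26.1 RPKM (2855 reads) in WT, a log2 ratio of -0.32 with an interval from -0.40 to -0.24. COP10 transcript per DDB1A transcript was 1.38 in phyB and 0.83 in WT, a difference of 0.74 on the log2 scale. COP10 is the shorter gene, and with the trend on coding length removed this difference was 0.39. That between COP10 and DET1 was 0.32, and 0.09 with the trend removed. DDB1B (AT4G21100), the paralog of DDB1A, was at 7.65 RPKM in phyB and 8.25 RPKM in WT, with a log2 ratio of -0.11 and an interval from -0.25 to 0.03. The coding sequences of this pair are 87.3% identical over the whole length, yet no stretch of 50 bases is the same in both.

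HY5 (AT5G11260) had the highest level of the 10 genes in either genotype. It stood at 114 RPKM (1919 reads) in phyB and at 139 RPKM (2365 reads) in WT, a log2 ratio of -0.29 with an interval from -0.38 to -0.20. HYH (AT3G17609), the related bZIP factor with overlapping targets, was at 105 RPKM (1566 reads) in phyB and 107 RPKM (1621 reads) in WT. The log2 ratio of HYH was -0.04, with an interval from -0.14 to 0.07 that includes 0. HY5 was thus lower in phyB by more than counting error, and HYH was not. The level of HY5 relative to HYH was 1.09 in phyB and 1.29 in WT, a difference of -0.25 on the log2 scale with an interval from -0.38 to -0.12. HY5 made up 52.1% of the summed level of the pair in phyB and 56.4% in WT. Relative to COP1, the summed level of both factors was 8.44 in phyB and 8.01 in WT. The difference between the log2 ratios was -0.04 for HY5 against COP1, with an interval from -0.17 to 0.09, and 0.21 for HYH against COP1, with an interval from 0.08 to 0.35. HY5 and HYH are short and COP1 is long, and after removal of a trend of the ratio on coding length, described further on, these differences were -0.35 for HY5 and -0.13 for HYH, so that both factors then stood lower relative to COP1 in phyB.

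The order of levels per length was nearly the same in both genotypes. In phyB it ran HY5, HYH, SPA1, SPA3, COP10, COP1, DET1, DDB1A, SPA4, SPA2, where the intervals of HY5 and HYH, of SPA3 and COP10 and of COP10 and COP1 overlapped. In WT it ran HY5, HYH, SPA1, SPA3, COP1, DDB1A, DET1, COP10, SPA4, SPA2, where only DET1 and COP10 had overlapping intervals among neighbours. COP10 was the gene that changed place most, at position 5 in phyB and position 8 in WT. The highest gene was 11.4 times the lowest in phyB and 9.63 times the lowest in WT. HY5 lay above 91.0% of all genes in phyB and 93.1% in WT, and SPA2 above 39.5% in phyB and 49.5% in WT.

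**Figure D2:**
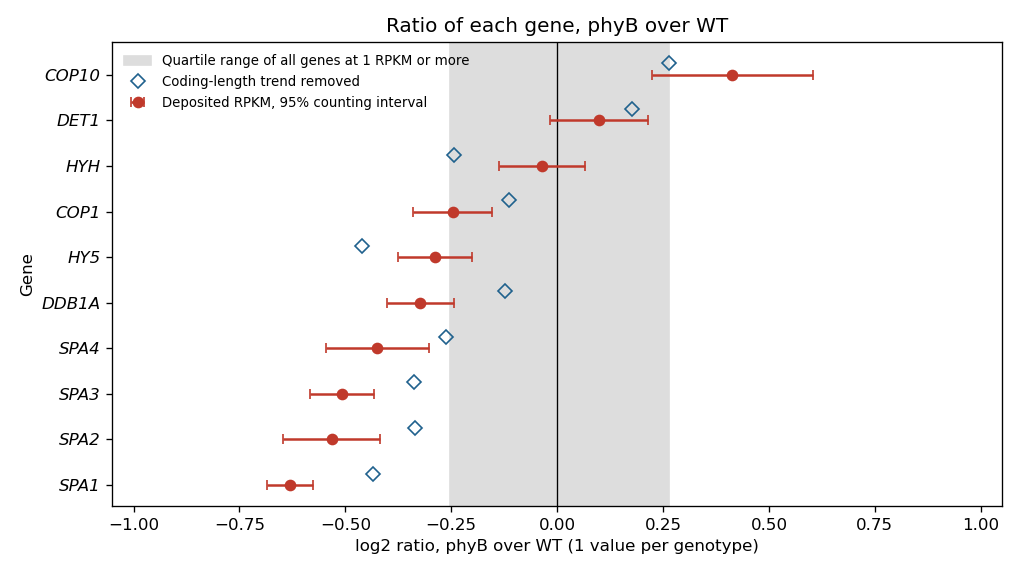
Log2 ratio of each gene, phyB over WT, with its 95% counting interval in red, and the ratio after removal of the trend on coding length as open diamonds. The grey band spans the quartiles of all genes as deposited. On either scale 8 of the 10 genes lie below 0, beside 51.0% of all genes on the deposited scale. COP10 and DET1 are the genes above 0.

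In these columns the ratio depended on coding length, and the 10 genes differ in length. The 7 genes from DET1 (1632 nt) to DDB1A (3267 nt) fall in a range in which 4247 genes had a median log2 ratio of -0.15. COP10 (549 nt), HY5 (507 nt) and HYH (450 nt) fall in a range in which 1089 genes had a median of 0.16. Among the 1118 genes between 2385 and 3111 nt, the range of the SPA genes, the median was -0.20 and the counting interval lay below 0 for 57.6% of genes, as it did for all 4 SPA genes. In that range 7.33% of genes were at least 1.5-fold lower, and 4.92% of genes had a lower ratio than SPA1, 9.84% a lower one than SPA2, 11.4% a lower one than SPA3 and 17.4% a lower one than SPA4. With the trend removed, the SPA genes stood at -0.43 (SPA1), -0.34 (SPA2), -0.34 (SPA3) and -0.26 (SPA4).

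The correction had the opposite effect on the short genes. HY5 came to -0.46, the lowest value of the 10 on this scale, and 15.6% of the 1089 genes of similar length had a lower ratio as deposited. HYH stood at -0.24 with the trend removed, against -0.04 as deposited, so its closeness to 0 depends on this choice. COP10 stood at 0.26 and DET1 at 0.18, both still above 0. COP1 and DDB1A came to -0.11 and -0.12, closer to 0 than as deposited. The cause of the length trend was not tested.

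**Figure D3:**
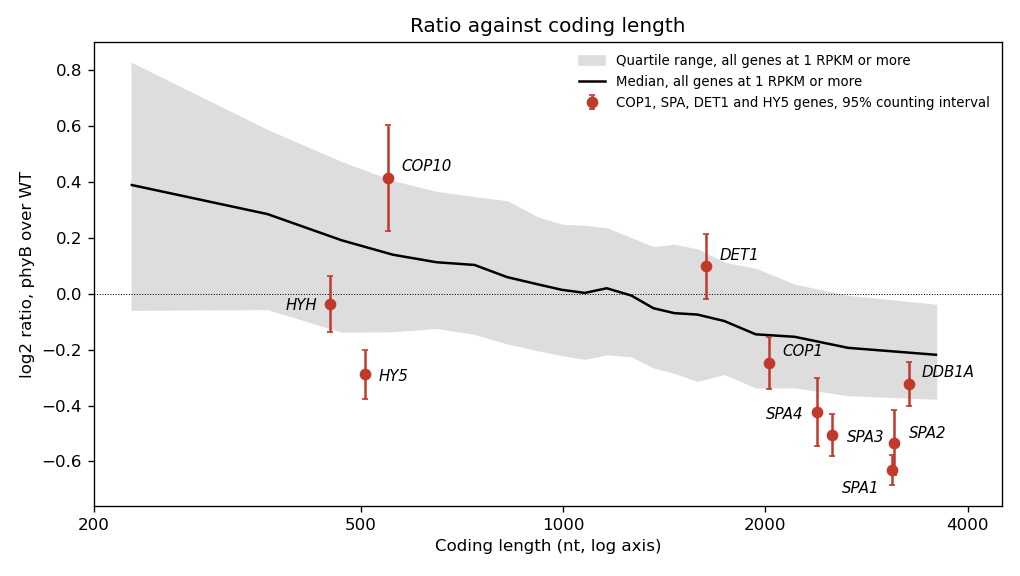
Log2 ratio, phyB over WT, against coding length in nucleotides on a log axis. The black line and grey band are the median and quartiles of all genes in 20 classes of length, and red points are the 10 genes with 95% counting intervals. The SPA genes lie under the band, HY5 lies under it at the short end, and COP10 lies close to its upper edge.

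The partners of these genes in the ligases did not move as a block. The list of the ligase core and COP9 signalosome, the complex that removes NEDD8 from cullins, held 15 genes, of which RBX1B was listed at 0 reads in both genotypes and 14 were measured. None differed 2-fold, beside 5.38% of all genes. Of the ratios, 7 were above 0 and 7 below, where 51.0% of all genes were below. The median was 0.04, beside -0.01 over all genes. The scaffold gene CUL4 had 3271 reads in phyB and 3989 reads in WT, a log2 ratio of -0.27, or -0.11 with the length trend removed. RBX1A, the RING subunit and the gene of highest mean in the list, had 127 RPKM in phyB and 96.7 RPKM in WT, a log2 ratio of 0.40. The signalosome subunit gene CSN8, at 62.7 RPKM in phyB and 40.4 RPKM in WT, had the highest ratio, 0.63, followed by CSN7 at 0.50. RBX1A and CSN8 are short, and with the length trend removed they stood at 0.18 and 0.50. CUL4, CSN8 and CSN7 were chosen after their values were seen.

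Among the 7 photoreceptors and regulators that bind the ligase, PHYB was the only gene at 2-fold or more, on the lower side, beside 2.18% of all genes. The list median was -0.19, with 5 ratios below 0, beside 51.0% of all genes. PHYB, the gene mutated in phyB, is in both counts, so neither describes the other genes of the list alone. The blue-light receptor genes CRY1 and CRY2 both stood at -0.36. CRY1 had 59.8 RPKM in phyB and 76.7 RPKM in WT, and CRY2 98.3 RPKM in phyB and 126 RPKM in WT. With the length trend removed, CRY1 stood at -0.23 and CRY2 at -0.25. The UV-B receptor gene UVR8 was at 0.01, and RUP1 and RUP2, which return UVR8 to its inactive form, were both at -0.19. PHYA, at 170 RPKM in phyB and 159 RPKM in WT, had a log2 ratio of 0.10 with an interval from 0.07 to 0.13. This was the only interval of the list above 0. PHYA stood at 0.30 with the length trend removed and at -0.04 with quantile normalization. These genes other than PHYB were chosen after their values were seen.

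Of the 13 genes for transcription factors and clock proteins that the ligase targets, 11 were measured and none differed 2-fold, beside 5.38% of all genes. The median was -0.08, with 4 ratios above 0 and 7 below, where 51.0% of all genes were below. BBX24, a B-box factor that interferes with HY5 and the gene of highest mean, had 478 RPKM in phyB and 537 RPKM in WT, a log2 ratio of -0.17. Chosen after its value was seen, HFR1, a bHLH factor that restrains PIF proteins, was at -0.11. The ends of the list, also chosen afterwards, were the clock genes ELF3 at -0.64 and GI at -0.63, and the B-box gene BBX20 at 0.77. With the length trend removed, HFR1 stood at -0.16, ELF3 at -0.50, GI at -0.42 and BBX20 at 0.68. ELF3, BBX24, BBX20 (by 4 bases) and CO (by 1967 bases) overlap genes on the opposite strand, and reads of both strands cannot be told apart here. CO, at 1.13 RPKM in phyB and 0.77 RPKM in WT, and PAP2, with 3 reads in phyB and 2 in WT, were under the filter.

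Genes whose promoters HY5 is known to bind did not share a direction. Of 22 genes NRT2.1 was listed at 0 in both genotypes, and of the 21 measured 3 were at least 2-fold higher in phyB and none 2-fold lower, beside 3.20% and 2.18% of all genes. The median was -0.05, with 10 ratios above 0 and 11 below, where 51.0% of all genes were below. FLS1, which makes flavonols, had 114 RPKM in phyB and 31.5 RPKM in WT (log2 ratio 1.85). CHS, the entry enzyme of flavonoid synthesis, had 799 RPKM in phyB and 326 RPKM in WT (1.29), and MYB111, a regulator of flavonol genes, had 26.4 RPKM in phyB and 11.0 RPKM in WT (1.27). At the other end, and chosen after values were seen, HEMA1, which starts tetrapyrrole synthesis, had 306 RPKM in phyB and 564 RPKM in WT (-0.88), and quantile normalization took it past 2-fold, to -1.12. At 1.5-fold, 5 genes of the list were higher in phyB and 2 lower, beside 9.74% and 7.27% of all genes. CHI was at 0.90, F3H at 0.77, MYB12 at 0.01 and ABI5 at -0.64. F3H overlaps a gene on the opposite strand by 1588 bases. The photoprotective genes ELIP1 and ELIP2 were at 0.52 and 0.51, or 0.39 and 0.37 with the length trend removed. LHCB1.3, an antenna gene of a family with near-identical copies, stood at -0.18. These genes, from CHI on, were also chosen afterwards.

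**Figure D4:**
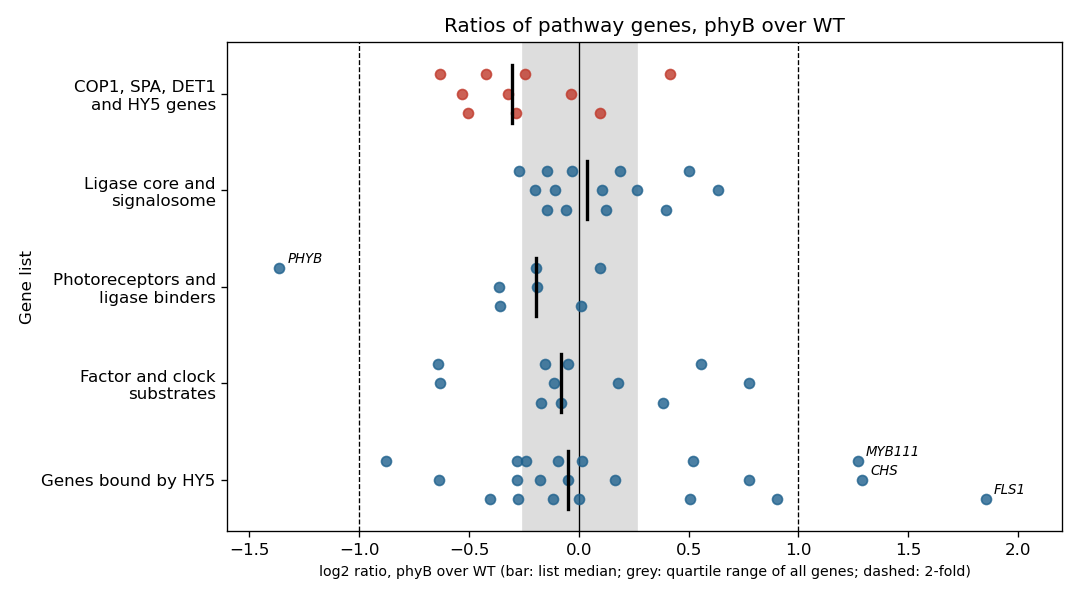
Log2 ratio, phyB over WT, of each measured gene (points) in the 10 genes and in 4 pathway lists, with the list median as a black bar. The grey band spans the quartiles of all genes and dashed lines mark 2-fold. Beyond the lines lie PHYB on the lower side and FLS1, CHS and MYB111 on the higher side.

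The sequences just upstream of the genes were read from the TAIR10.1 reference because HY5 binds DNA through elements with an ACGT core, and COP1 is among the genes it binds. The window was the 250 bases before the annotated gene start, on the gene's strand, and it was read for 9 of the genes. ACGT, which reads the same on both strands, occurred in 7 of the 9 windows and in 44.1% of those of 27443 protein-coding genes. CACGTG, the G-box that contains it, occurred in 0 of the 9 and in 6.49% of all windows. Shown are the 4 SPA genes and COP1, for the ligase of COP1 and SPA proteins, and HY5, its best-known target. Each ACGT is in capitals.
SPA1 (chr2:19027529-19027778, minus strand): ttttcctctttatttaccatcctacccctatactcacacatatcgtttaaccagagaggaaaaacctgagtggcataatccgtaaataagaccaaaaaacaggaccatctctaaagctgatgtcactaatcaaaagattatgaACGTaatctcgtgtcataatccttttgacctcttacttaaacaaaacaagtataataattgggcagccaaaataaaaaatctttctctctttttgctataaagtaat
SPA2 (chr4:6771355-6771604, plus strand): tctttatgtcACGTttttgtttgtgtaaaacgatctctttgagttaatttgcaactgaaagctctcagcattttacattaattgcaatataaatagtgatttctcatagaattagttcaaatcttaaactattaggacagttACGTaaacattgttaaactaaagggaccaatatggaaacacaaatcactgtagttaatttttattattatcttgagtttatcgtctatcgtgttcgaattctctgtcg
SPA3 (chr3:5173106-5173355, minus strand): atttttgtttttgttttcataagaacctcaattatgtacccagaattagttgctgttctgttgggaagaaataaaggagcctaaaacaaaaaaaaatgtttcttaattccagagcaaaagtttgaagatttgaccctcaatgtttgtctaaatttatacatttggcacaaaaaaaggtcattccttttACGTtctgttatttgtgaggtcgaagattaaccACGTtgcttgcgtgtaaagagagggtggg
SPA4 (chr1:19782935-19783184, plus strand): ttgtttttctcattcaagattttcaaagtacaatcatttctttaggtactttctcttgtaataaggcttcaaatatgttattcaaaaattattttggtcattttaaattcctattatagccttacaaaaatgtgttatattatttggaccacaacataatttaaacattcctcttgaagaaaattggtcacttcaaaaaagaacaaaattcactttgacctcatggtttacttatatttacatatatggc
COP1 (chr2:13977631-13977880, plus strand): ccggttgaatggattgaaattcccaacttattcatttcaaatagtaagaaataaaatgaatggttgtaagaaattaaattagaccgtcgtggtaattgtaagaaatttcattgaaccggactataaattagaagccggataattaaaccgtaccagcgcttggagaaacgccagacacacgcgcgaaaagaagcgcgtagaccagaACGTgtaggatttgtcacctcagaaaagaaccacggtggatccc
HY5 (chr5:3595074-3595323, minus strand): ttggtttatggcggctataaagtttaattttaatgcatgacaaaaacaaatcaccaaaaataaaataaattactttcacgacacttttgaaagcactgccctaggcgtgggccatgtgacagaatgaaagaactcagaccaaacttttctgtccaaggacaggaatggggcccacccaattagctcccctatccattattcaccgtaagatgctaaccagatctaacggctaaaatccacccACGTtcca
Among the SPA genes, SPA2 and SPA3 had 2 copies each, SPA1 had 1 and SPA4 had none. In COP1 the match began 44 bases and in HY5 8 bases before the gene start. In HYH, not printed, a match began 55 bases before the start. Part of the HY5 window overlaps the neighbouring gene AT5G11270. DET1, like SPA4, had no match in this window. A match describes these letters only, and its relation to the ratios was not tested.

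The gene models limit what the levels mean. COP1 lies on chromosome 2 from 13977881 to 13983609 on the plus strand in TAIR10.1, with 13 exons, and HY5 on chromosome 5 from 3593335 to 3595073 on the minus strand, with 4 exons. SPA1 lies on chromosome 2 from 19022154 to 19027528 on the minus strand, with 8 exons, of which 7 hold coding sequence. Reads were counted against 1 model per gene, and the model of HYH (450 nt coding) is 1 of 4 coding lengths that the reference gives for this gene, on chromosome 3 from 6023844 to 6024710. SPA3 and SPA4 overlap a gene on the opposite strand, by 135 and 3 bases, as do DDB1B by 127 bases, LHCB1.3 by 108 bases, CHS by 2 bases and the root markers CASP1 and EXPA7 by 49 and 23 bases. None of the 10 coding sequences shared any stretch of 50 bases with another gene, and the closest pair among the 10, SPA3 and SPA4, was 79.0% identical over 51.0% of the SPA3 length.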

How the data were processed

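Oligo(dT)-selected RNA of whole seedlings was sequenced, per the labels' protocols, with samples grouped by labelled genotype. Each genotype has 1 deposited column of reads, treated as estimated counts because the authors wrote 0.5 for 0 reads (set back to 0), and 1 deposited column of RPKM. Whether a column pools both samples is not stated in the sources. TAIR10 is the build in the submitters' processing notes, while no source used here gives the aligner, counter or strand use.

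The log2 ratio, phyB over WT, had no pseudocount. A floor of 3 reads stood in for 0, and genes at or under it in both columns got no ratio. Intervals are 95% Clopper-Pearson for ratios, Poisson for levels and normal approximations on 4 counts for differences of ratios. They cover counting error only, and they take reads as independent, which PCR copies are not. Described genes averaged at least 1 RPKM. The length trend was a lowess fit (span 0.3, statsmodels 0.14.6) of the ratio against coding length, both log2. The alternatives used edgeR 4.0.16 and limma 3.58.1. Identities came from BLAST 2.17.0, and names, positions and sequence from RefSeq TAIR10.1. The upstream sequence of 1 gene is not reported here. The intervals were checked only on counts simulated with counting error alone, the error that they assume. That check cannot show how well they hold in these columns.

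The 10 genes and all lists were chosen with earlier results of these data known. Named were all 10 genes, PHYB, and in each list up to 4 members at 2-fold and 5 RPKM, or else the member of highest mean. Others are marked as chosen after their values were seen. With 2 columns a pattern is the ratio alone, so no gene was named for likeness.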

Additional observations from a re-analysis of the deposited data

How the results depend on the processing

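No alternative took any of the 10 genes to 2-fold. At a 1.5-fold threshold 1 of the 10 qualified (SPA1, but not with upper-quartile factors, at -0.58, or the length trend removed), and 8 had a counting interval that excludes a ratio of 1. For all genes the count of 1038 at 2-fold became 621 on the log2(RPKM + 1) scale, 2137 with no filter on low values, 518 at a mean of at least 5 RPKM, 3282 at 1.5-fold and 11937 by the counting interval, which follows from how each criterion is built. With the length trend removed it was 948, and the split of 617 higher and 421 lower became 450 and 498. That setting also took 8 of the 10 genes out of their counting intervals, to -0.11 for COP1, -0.43 for SPA1, -0.34 for SPA2, -0.34 for SPA3, -0.26 for SPA4, -0.12 for DDB1A, -0.46 for HY5 and -0.24 for HYH. Quantile normalization moved HY5 to -0.38 and made the genes bound by HY5 at 2-fold 4, with HEMA1 lower at -1.12, where they were 3. TMM, RLE and upper-quartile factors, totals without organelle genes and pseudocounts of 1 and 0.1 left all 10 within their intervals. With upper-quartile factors HYH stood at 0.01, and no other of the 10 changed sign under any setting. Shares by reads, not per length, follow gene length: SPA1 50.5% in phyB and 52.8% in WT, SPA2 11.6% and 11.3%, SPA3 27.2% and 26.1%, SPA4 10.7% and 9.73%, HY5 55.1% and 59.3%, HYH 44.9% and 40.7%, and a log2 ratio of HY5 to HYH of 0.29 in phyB and 0.54 in WT. No paired analysis was possible because the columns carry no replicate numbers, 1 standing for each genotype. Leaving out a replicate and tests across replicates were not run for the same reason. Depth limits COP10 most, whose interval spans 0.38 on the log2 scale.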
